A study of Arabidopsis thaliana with 305 samples.

Results

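Wild-type Arabidopsis thaliana (accession Col-0) leaves infiltrated with bacteria that deliver the effector AvrRps4 were compared with Col-0 leaves infiltrated with the same bacterial strain carrying an empty vector (EV), both sampled after 8 h. All replicates whose labels gave this genotype, time and treatment were used, which came to 6 replicates (12 libraries) of the 156 replicates (305 libraries) in the series, with 3 replicates in each group. The whole study profiled poly(A) RNA from leaf discs of Col-0, nrg1.1 nrg1.2 plants (called nrg1 here, without the NRG1 helper receptors), the adr1 triple mutant (called adr1 here, without the ADR1 helper receptors) and helperless plants (without both families). The 4 bacterial treatments were EV, AvrRps4, AvrRpt2 and AvrRpm1, sampled before infiltration (T0) and after 0.5, 4 and 8 h. Plants were grown for 6 weeks with 8 h of light per day. The series design names the bacterium as Pf0, whereas the labels' protocol names a Pseudomonas syringae strain, and does so for growth curves only. The labels do not say whether replicates came from separate plants or separate experiments. Unless stated otherwise, the p-values below rest on the spread between replicates estimated over all 52 groups of the series, not over these 6 replicates alone. That spread may be partly technical.

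AvrRps4 is a Pseudomonas syringae protein that is recognised in Col-0 by a pair of intracellular receptors, RPS4 and RRS1, of the TIR class of nucleotide-binding leucine-rich repeat receptors (NLRs). Signalling from TIR receptors runs through EDS1, which pairs with PAD4 or with SAG101, and through the helper NLRs of the ADR1 and NRG1 families. In leaves this branch of immunity is known for the build-up of salicylic acid and of N-hydroxypipecolic acid, both of which act in local and systemic resistance, and for a cell death response. EV bacteria present general microbial patterns, so the comparison with EV asks what the effector added to the response that both groups share.

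Each replicate is the sum of a pair of libraries with the same label. The replicate totals were 12218115, 10899845 and 9976038 counts in AvrRps4 leaves, against 14269719, 8233060 and 8880107 counts in EV leaves. Levels are given as CPM (each library's counts scaled to a common total) after normalisation by the trimmed mean of M values, and they are not divided by gene length. EV replicate 3 stood apart before any test in the ratio of counts of helper NLR genes. Among infiltrated libraries with their label's pattern, ADR1-L1 counts divided by ADR1-L2 counts gave 1.15 to 5.56 in Col-0 and nrg1 and 32.64 to 658.97 in adr1 and helperless leaves. At T0, where adr1 and helperless libraries had 2.39 to 42.16 and Col-0 and nrg1 libraries 1.51 to 3.67, the ratio was not used to judge labels. The 6 AvrRps4 libraries had ratios between 1.58 and 2.17 and the 4 libraries of EV replicates 1 and 2 had ratios between 1.89 and 2.57, but both libraries of EV replicate 3 had 57.01 and 97.96, in the range of the infiltrated adr1 and helperless leaves. MRD1, a gene named for its response in a methionine mutant, had 0 counts in the other 5 replicates and 15 in EV replicate 3. It was picked from the comparison with helperless leaves below, in which EV replicate 3 takes part, so it adds no independent support. Across genes, EV replicate 3 correlated with EV replicates 1 and 2 at 0.984 and 0.979, and those 2 with each other at 0.975. Because of that ratio, counts over all genes in the 8 h comparison are given with and without EV replicate 3. So are list counts that it changed and named genes whose call it ended. Among the infiltrated libraries of the series 10 went against their label in this ratio, which bears on the comparisons between genotypes below.

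At 8 h, 755 genes rose and 241 fell in AvrRps4 leaves relative to EV leaves, which was 3.84% and 1.22%, together 5.06%, of the 19687 genes tested (edgeR's quasi-likelihood test; p under 0.05 after Benjamini-Hochberg adjustment and a change of at least 1 on the log2 scale). Without EV replicate 3, 446 genes rose and 132 fell, 2.24% and 0.663%, together 2.9%, of 19911, and 557 of the 996 genes called with all replicates were called again in the same direction. Leaving out EV replicate 2 gave 411 risen genes and leaving out AvrRps4 replicate 3 gave 468. For the fallen genes, leaving out AvrRps4 replicate 2 gave 150. With only these 2 groups in the fit and EV replicate 3 left out, an alternative added after the values were seen, the counts were 277 risen and 51 fallen genes. In that fit 46 of the 87 named genes with a call from all replicates kept it and 40 missed the threshold, among them EDS5, PBS3 and FMO1 (adjusted p = 0.0544, 0.0622 and 0.0923). In 18.2% of all tested genes every AvrRps4 replicate was above every EV replicate, and in 14.1% every AvrRps4 replicate was below. The median log2 difference over all genes was 0.01.

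**Figure D1:**
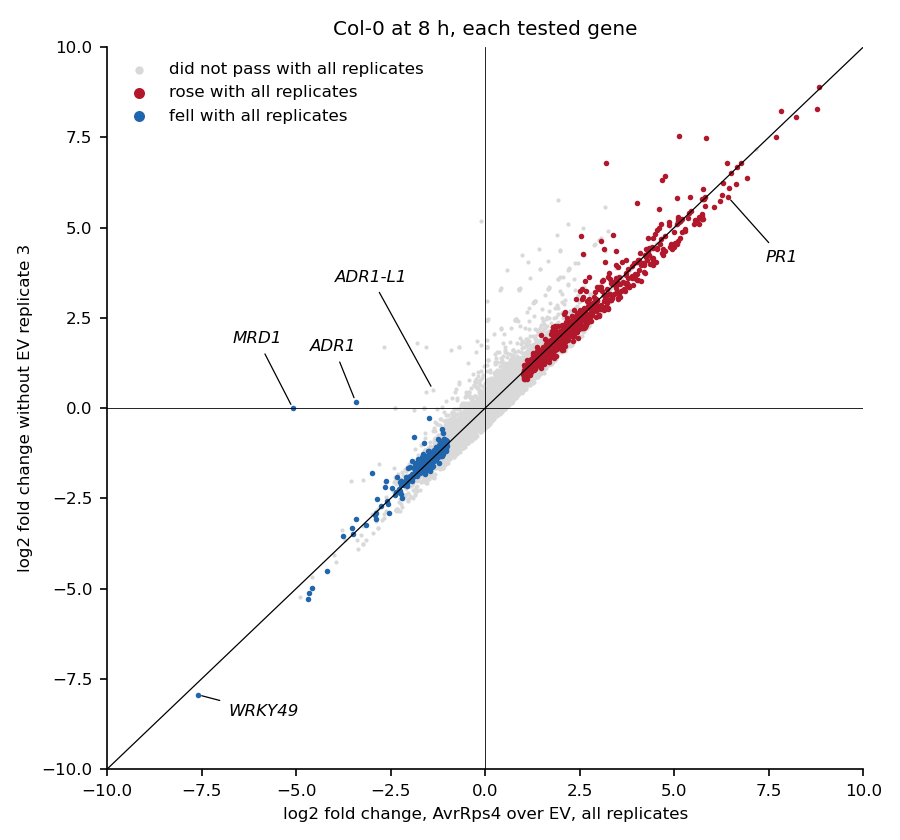
Log2 difference between AvrRps4 and EV leaves at 8 h for each tested gene, with all replicates on the horizontal axis and without EV replicate 3 on the vertical axis. PR1 stays high in both (6.42 and 5.85) and WRKY49 low in both, whereas ADR1 moves to 0.18 without EV replicate 3, against -3.43 with it.

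Salicylic acid synthesis was among the gene groups that rose. In chloroplasts, ICS1 makes isochorismate, EDS5 exports it, and PBS3 joins it to glutamate in the cytosol. ICS1 had 396, 439 and 721 CPM in AvrRps4 leaves, against 47.7, 39.6 and 92.2 CPM in EV leaves. The groups did not overlap, and ICS1 rose by 3.12 ± 0.58 on the log2 scale (SE; adjusted p = 6.11e-05), or by 3.56 without EV replicate 3 (adjusted p = 0.000489). EDS5 had 389, 502 and 875 CPM in AvrRps4 leaves, against 72.7, 31.4 and 49.9 CPM in EV leaves. It rose by 3.52 ± 0.57 (adjusted p = 2.85e-06), with every AvrRps4 replicate above every EV replicate. PBS3 had 719, 1037 and 1671 CPM in AvrRps4 leaves, against 129, 45.5 and 86.8 CPM in EV leaves, and rose by 3.71 ± 0.67 (adjusted p = 2.68e-05). Of the 5 genes on the list, 3 rose and 0 fell, with a median of 3.12, against 3.84% risen and a median of 0.01 over all genes. Without EV replicate 3 the count was 3 and the median 3.48. The remaining members did not pass: ICS2, the minor isochorismate synthase, had 0.249, 2.37 and 0.427 CPM in AvrRps4 leaves, against 0.205, 0.169 and 0.158 CPM in EV leaves, so its difference of 2.41 rested mostly on AvrRps4 replicate 2 (adjusted p = 0.139), and EPS1, which releases salicylic acid from the PBS3 product, differed by -0.42 (adjusted p = 0.584).

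**Figure D2:**
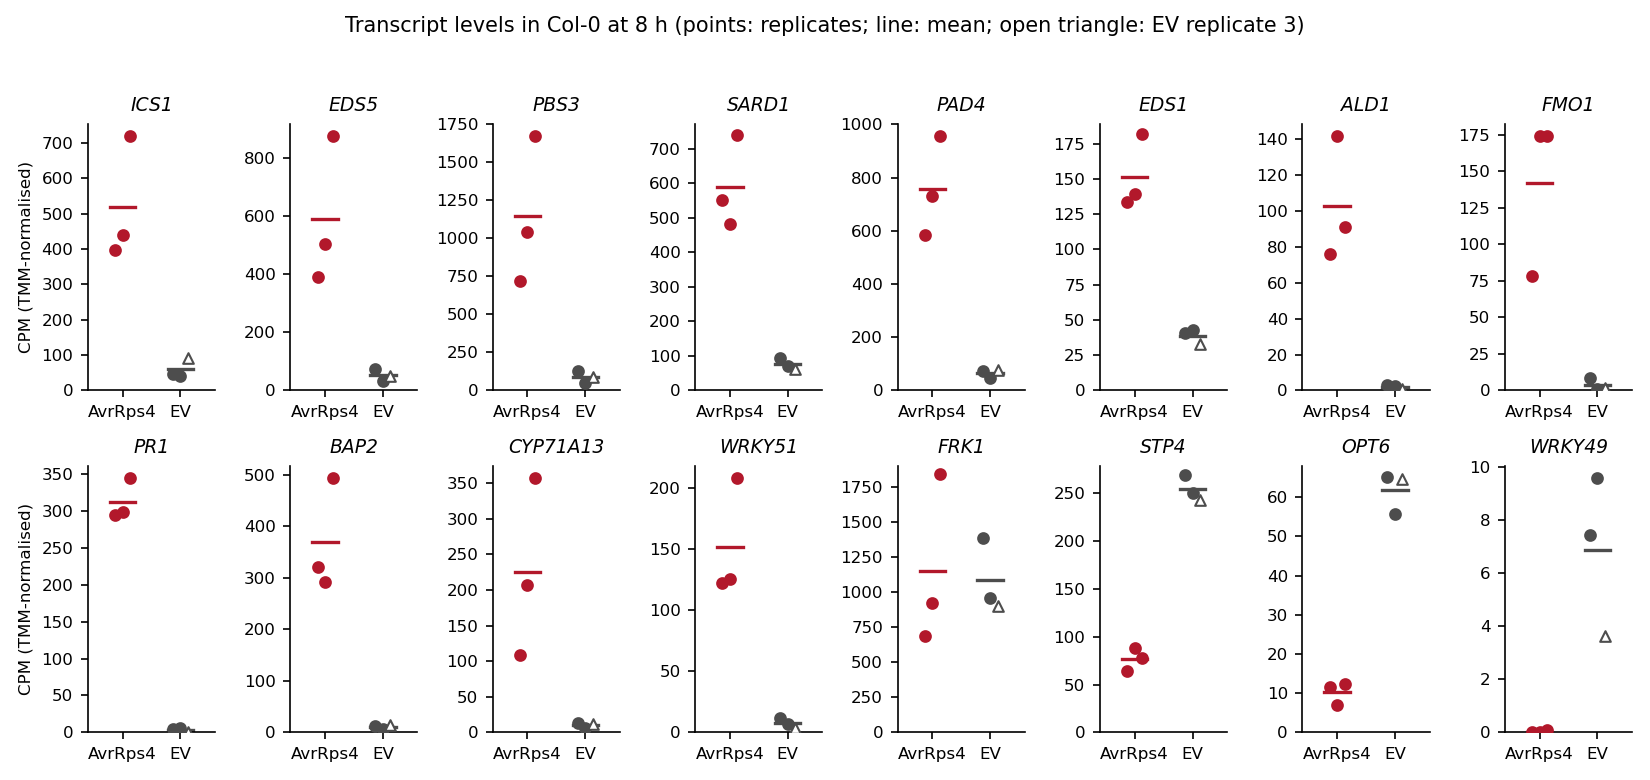
Level in CPM of 16 genes in each replicate at 8 h, with AvrRps4 leaves at the left (red) and EV leaves at the right (grey) of each panel; lines are group means, and the open triangle is EV replicate 3. In ICS1, EDS5, PBS3, PAD4, ALD1, BAP2 and WRKY51 the 3 AvrRps4 replicates lie above all EV replicates, in STP4, OPT6 and WRKY49 they lie below, and in FRK1 the groups overlap.

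Genes of this response are shown with 250 bases of sequence upstream of the gene start, since members that moved together can be compared by the binding motifs written there. SARD1 is a transcription factor that binds the ICS1 promoter and ICS1 and EDS5 are described above. Sequences are from RefSeq assembly TAIR10.1, written 5′ to 3′ on the strand of the gene, and capitals mark the letters TTGAC (the core of the W-box, which WRKY factors bind) and TGACG (the core that TGA factors bind), searched on both strands, where matches may overlap.
SARD1 (chr1:27749249-27749498, minus strand): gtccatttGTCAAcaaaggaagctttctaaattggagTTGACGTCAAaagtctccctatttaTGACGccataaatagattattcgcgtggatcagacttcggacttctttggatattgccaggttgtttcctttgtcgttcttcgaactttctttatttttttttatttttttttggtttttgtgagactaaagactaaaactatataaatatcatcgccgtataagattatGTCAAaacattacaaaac
EDS5 (chr4:18185187-18185436, plus strand): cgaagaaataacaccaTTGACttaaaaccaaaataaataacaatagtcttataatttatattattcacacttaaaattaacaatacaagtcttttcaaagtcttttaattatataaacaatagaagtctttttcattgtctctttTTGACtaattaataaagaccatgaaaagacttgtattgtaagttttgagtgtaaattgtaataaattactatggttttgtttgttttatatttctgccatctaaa
ICS1 (chr1:28070045-28070294, plus strand): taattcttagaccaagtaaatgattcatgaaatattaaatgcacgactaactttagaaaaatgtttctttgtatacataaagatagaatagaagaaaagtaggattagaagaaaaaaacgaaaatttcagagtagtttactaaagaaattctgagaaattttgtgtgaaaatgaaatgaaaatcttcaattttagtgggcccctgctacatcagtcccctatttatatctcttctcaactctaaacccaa
The SARD1 window held 4 matches of TTGAC and 3 of TGACG, some of them overlapping. EDS5 had 2 TTGAC matches, and the ICS1 window had 0 of either motif, which says only that these letters are not in this window. Across genes, 56.7% of the 755 risen genes and 51.5% of the 241 fallen genes had TTGAC in this window, against 45.4% of the 19571 tested genes with a window. TGACG was in 20.7% of the risen and 22.4% of the fallen genes, against 19.4% of all tested genes.

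Genes of salicylic acid signalling rose in part. SARD1 had 550.5, 482 and 739.6 CPM in AvrRps4 leaves, against 94.1, 71.2 and 62.0 CPM in EV leaves, without overlap, and rose by 2.96 ± 0.61 on the log2 scale (adjusted p = 0.000355; 2.82 and 0.0119 without EV replicate 3). GRX480, a glutaredoxin that interacts with TGA factors, had 53.5, 30.7 and 74.9 CPM in AvrRps4 leaves, against 9.14, 4.24 and 11.1 CPM in EV leaves, and rose by 2.69 ± 0.63 (adjusted p = 0.00171). NIMIN1, which binds the salicylic acid receptor NPR1, had 47.6, 68.8 and 80.3 CPM in AvrRps4 leaves, against 13.2, 10.3 and 10.1 CPM in EV leaves. It rose by 2.54 ± 0.67 (adjusted p = 0.00664), but its adjusted p was 0.0579 without EV replicate 3. WRKY70 lost its call in the same way: its level was 905, 1022 and 1100.2 CPM in AvrRps4 leaves, against 277, 184 and 102 CPM in EV leaves, a rise of 2.43 ± 0.66 with all replicates (adjusted p = 0.00913) and an adjusted p of 0.114 without EV replicate 3. Without EV replicate 2 the adjusted p was 0.058 for NIMIN1 and 0.0677 for WRKY70. NPR3, a salicylic acid receptor that acts as a repressor of defence genes, had 400.2, 437 and 549 CPM in AvrRps4 leaves, against 159, 119 and 153 CPM in EV leaves. It rose by 1.69 ± 0.36 (adjusted p = 0.000472) and passed without EV replicate 3 as well. NPR1 itself differed by 0.66 (adjusted p = 0.0811), and CBP60G, the close relative of SARD1, by 1.29 (adjusted p = 0.0624). Of 20 genes, 6 rose and 0 fell (median 1.12), against 3.84% risen over all genes, and 3 rose without EV replicate 3 (median 1.07). In 14 of the 20 every AvrRps4 replicate was above every EV replicate, against 18.2% of all genes.

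The effectors of the salicylic acid response were uneven. PR1, the classical salicylic acid marker, had 294, 298 and 344 CPM in AvrRps4 leaves, against 4.77, 5.93 and 0.158 CPM in EV leaves, without overlap, and rose by 6.42 ± 1.14 on the log2 scale (adjusted p = 1.58e-05; 5.85 without EV replicate 3). PR2, a glucanase, had 6.72, 3.33 and 5.80 CPM in AvrRps4 leaves, against 2.26, 2.12 and 1.19 CPM in EV leaves. It did not pass (difference 1.5 ± 0.92, adjusted p = 0.343), nor did PR5, a thaumatin-like protein, which overlapped between the groups with 12.8, 9.04 and 16.6 CPM in AvrRps4 leaves, against 2.31, 20.7 and 4.66 CPM in EV leaves. Only 1 of these 3 PR genes therefore rose, against 3.84% of all genes. On the list for salicylic acid breakdown and conjugation, 1 of 6 genes rose, against the same 3.84%. UGT76D1, a glucosyltransferase, had 1.74, 2.07 and 3.16 CPM in AvrRps4 leaves, against 0.103, 0.254 and 0.0790 CPM in EV leaves. It rose by 3.96 ± 0.73 (adjusted p = 2.59e-05). The hydroxylases DLO1 and DMR6 differed by 2.09 (adjusted p = 0.0813) and 0.27 (adjusted p = 0.788).

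The N-hydroxypipecolic acid pathway had some of the larger changes. ALD1, the aminotransferase that starts the pathway from lysine, had 75.9, 142 and 91.1 CPM in AvrRps4 leaves, against 3.08, 2.29 and 0.869 CPM in EV leaves. The groups did not overlap, and ALD1 rose by 5.6 ± 0.90 (adjusted p = 1.92e-06; 5.21 and 0.000507 without EV replicate 3). FMO1, the enzyme that hydroxylates pipecolic acid, had 78.7, 174 and 174 CPM in AvrRps4 leaves, against 8.37, 0.678 and 1.5 CPM in EV leaves. It rose by 5.29 ± 0.92 (adjusted p = 1.04e-05; 4.90 and 0.00167 without EV replicate 3). AT5G52810, an enzyme of the NAD(P)-binding Rossmann-fold superfamily placed between ALD1 and FMO1, had 169, 208 and 323 CPM in AvrRps4 leaves, against 41.9, 65.4 and 33.4 CPM in EV leaves. Its rise of 2.32 ± 0.57 (adjusted p = 0.0036) missed the threshold without EV replicate 3 (adjusted p = 0.0518). UGT76B1, which glycosylates N-hydroxypipecolic acid and salicylic acid, was 962, 1373 and 1681 CPM in AvrRps4 leaves, against 450.0, 459.5 and 343 CPM in EV leaves; its replicates did not overlap, but the difference of 1.68 did not pass (adjusted p = 0.184). In all, 3 of 4 genes rose (median 3.80), against 3.84% of all genes, and 2 rose without EV replicate 3 (median 3.51).

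In the EDS1 node, PAD4 and EDS1 rose. PAD4 had 583, 731 and 958 CPM in AvrRps4 leaves, against 74.7, 46.0 and 75.2 CPM in EV leaves. It rose by 3.53 ± 0.54 (adjusted p = 7.67e-07), and by 3.62 without EV replicate 3 (adjusted p = 8.67e-05). EDS1 had 134, 139 and 182 CPM in AvrRps4 leaves, against 40.7, 42.6 and 33.1 CPM in EV leaves, without overlap, and rose by 1.96 ± 0.48 (adjusted p = 0.00326; 0.0426 without EV replicate 3). AT3G48080, a near copy of EDS1 beside it, differed by 1.34 (adjusted p = 0.052), and reads from such a pair may be divided between them in counting. SAG101, the other partner of EDS1, had 64.2, 70.2 and 98.3 CPM in AvrRps4 leaves, against 49.3, 38.0 and 40.9 CPM in EV leaves. It was higher in every AvrRps4 replicate, but its difference of 0.86 did not pass (adjusted p = 0.106). NDR1, which acts with receptors of the coiled-coil class, differed by 0.35 (adjusted p = 0.549). The count was 2 of 5 both with and without EV replicate 3, against 3.84% and 2.24% of all genes.

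None of the 5 helper NLR genes on the list rose by the threshold. AT5G66890, the gene next to NRG1.1, is not on the list and rose by 4.85, as given under the other observations. NRG1.2 had 64.1, 69.2 and 93.0 CPM in AvrRps4 leaves, against 34.3, 29.7 and 24.0 CPM in EV leaves (1.36 ± 0.52, adjusted p = 0.0875). NRG1.1 had 30.5, 28.5 and 31.6 CPM in AvrRps4 leaves, against 21.2, 14.1 and 18.6 CPM in EV leaves, a difference of 0.75 ± 0.25 whose adjusted p of 0.0474 was under 0.05 but whose size was under the fold limit. ADR1-L2 had 176, 180.2 and 200.3 CPM in AvrRps4 leaves, against 138, 101 and 29.2 CPM in EV leaves (1.05 ± 0.39, adjusted p = 0.0758). In each of these 3 genes every AvrRps4 replicate was above every EV replicate, but ADR1-L2 belongs to the ratio that set EV replicate 3 apart, and its difference was 0.61 without that replicate (adjusted p = 0.47). For ADR1 and ADR1-L1, EV replicate 3 decided the sign. ADR1 had 29.0, 23.6 and 34.6 CPM in AvrRps4 leaves, against 23.3, 27.4 and 888 CPM in EV leaves, so its difference was -3.43 with EV replicate 3 (adjusted p = 0.00382) and 0.18 without EV replicate 3 (adjusted p = 0.936). ADR1-L1 had 297, 373 and 405 CPM in AvrRps4 leaves, against 262, 236 and 2303 CPM in EV leaves, and its difference was -1.38 with EV replicate 3 (adjusted p = 0.0818) and 0.50 without it (adjusted p = 0.667).

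None of the receptors of AvrRps4 passed both limits. RPS4 had 46.7, 70.2 and 54.6 CPM in AvrRps4 leaves, against 36.7, 28.3 and 32.2 CPM in EV leaves, without overlap; its difference of 0.82 ± 0.23 had an adjusted p of 0.0107 (0.07 without EV replicate 3) and stayed under the fold limit. RRS1 differed by 0.29 (adjusted p = 0.454). TTR1, in the second receptor pair, had 21.6, 29.8 and 36.1 CPM in AvrRps4 leaves, against 40.0, 42.7 and 43.6 CPM in EV leaves (-0.53, adjusted p = 0.19), and its partner AT5G45060 differed by -0.07. Of 20 other NLR genes and associated proteins, 5 rose and 0 fell (median 0.42), against 3.84% risen over all genes, and 3 rose without EV replicate 3. AT1G17615, annotated as a TIR-NBS protein without leucine-rich repeats, had 7.59, 8.67 and 8.45 CPM in AvrRps4 leaves, against 0.359, 0 and 0.237 CPM in EV leaves, and rose by 5.16 ± 0.76 (adjusted p = 1.96e-07; 5.18 without EV replicate 3). AT1G17600, a TIR-NBS-LRR gene close to AT1G17615, had 40.1, 49.6 and 58.2 CPM in AvrRps4 leaves, against 19.1, 14.4 and 10.7 CPM in EV leaves. It rose by 1.74 ± 0.44 (adjusted p = 0.00435, or 0.0673 without EV replicate 3). CHS1, also on this list, shares 3193 bases with AT1G17600 on the other strand, so reads may be divided between them. SNC1 rose by 1.12 ± 0.26 (adjusted p = 0.00165), RPP5 by 1.13 ± 0.29 (adjusted p = 0.0049) and RPP4 by 1.07 ± 0.36 (adjusted p = 0.044; 0.164 without EV replicate 3). These last 3 belong to a cluster of closely related genes, so reads may be divided between them.

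Genes of pattern-triggered immunity, which both bacteria set off, were tested on 2 lists. FRK1, a receptor kinase used as a marker of that response, had 684, 922 and 1843 CPM in AvrRps4 leaves, against 1386, 959 and 903 CPM in EV leaves. The groups overlapped, and the difference was 0.09 ± 0.60 (adjusted p = 0.955), or -0.48 without AvrRps4 replicate 3. None of the 17 pattern recognition genes passed in either direction (median 0.37); their differences lay between -0.23 for FLS2, the flagellin receptor, and 0.97 for LYK5, a chitin receptor. Among 14 pattern-triggered markers and kinases, 2 rose and 1 fell (median 0.41), against 3.84% risen and 1.22% fallen over all genes. Without EV replicate 3, 1 rose and 1 fell, against 2.24% and 0.663% of all genes. MPK11 had 80.5, 77.6 and 101 CPM in AvrRps4 leaves, against 33.8, 12.6 and 35.0 CPM in EV leaves and MKK4, a MAP kinase kinase, had 71.3, 106 and 111 CPM in AvrRps4 leaves, against 33.9, 26.7 and 38.0 CPM in EV leaves. MPK11 rose by 1.67 ± 0.55 (adjusted p = 0.0416; 0.0912 without EV replicate 3) and MKK4 by 1.55 ± 0.44 (adjusted p = 0.0127; 0.0488 without EV replicate 3). PUB22, a ubiquitin ligase that dampens pattern-triggered responses, fell by 1.63 ± 0.45 on the log2 scale (adjusted p = 0.0114), with 38.9, 51.8 and 73.9 CPM in AvrRps4 leaves, against 197, 124 and 187 CPM in EV leaves. These calls were close to the threshold. Leaving out any 1 of the 6 replicates ended that of MPK11 (adjusted p between 0.074 and 0.284), leaving out AvrRps4 replicate 2 or 3 or EV replicate 2 ended that of MKK4 (adjusted p = 0.0527, 0.0802 and 0.115), and leaving out AvrRps4 replicate 1 or 2 ended that of PUB22 (adjusted p = 0.0773 and 0.054).

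WRKY transcription factors moved in both directions. Of 27 on the list, 5 rose and 2 fell (median 0.31), and 4 rose and 2 fell without EV replicate 3 (median 0.36). Over all genes 3.84% rose and 1.22% fell. WRKY51, which with WRKY50 links salicylic acid to the repression of jasmonate signalling, had 122, 126 and 208 CPM in AvrRps4 leaves, against 12.2, 6.52 and 3.32 CPM in EV leaves. It rose by 4.36 ± 0.77 (adjusted p = 1.75e-05; 3.99 without EV replicate 3). WRKY46 had 184, 194 and 353 CPM in AvrRps4 leaves, against 49.0, 28.3 and 59.4 CPM in EV leaves, a rise of 2.42 ± 0.63 (adjusted p = 0.00623). WRKY31 had 22.6, 23.9 and 75.1 CPM in AvrRps4 leaves, against 8.37, 8.98 and 4.66 CPM in EV leaves, a rise of 2.46 ± 0.60 (adjusted p = 0.003). In both the groups did not overlap, but without AvrRps4 replicate 3 the adjusted p was 0.0702 for WRKY46 and 0.13 for WRKY31, and without EV replicate 2 it was 0.084 for WRKY46. WRKY18, a partner of WRKY40 and WRKY60, rose by 1.71 ± 0.41 (adjusted p = 0.00248). WRKY7 and WRKY47 were lower in every AvrRps4 replicate: WRKY7 had 16.6, 13.9 and 26.5 CPM in AvrRps4 leaves, against 56.3, 58.0 and 68.3 CPM in EV leaves (-1.68 ± 0.42, adjusted p = 0.00421), and WRKY47 had 32.9, 34.4 and 46.6 CPM in AvrRps4 leaves, against 129, 89.6 and 138 CPM in EV leaves (-1.65 ± 0.38, adjusted p = 0.00148).

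Among 11 camalexin genes, which make the main indolic phytoalexin of this species, 3 rose and 0 fell (median 0.91), and 1 rose without EV replicate 3. The shares risen over all genes were 3.84% and 2.24%. CYP71A13, which makes indole-3-acetonitrile, had 109, 208 and 357 CPM in AvrRps4 leaves, against 13.5, 6.78 and 11.6 CPM in EV leaves. It rose by 4.40 ± 0.93 (adjusted p = 0.000506; 0.00929 without EV replicate 3). PAD3, the last enzyme of the pathway, had 286, 675 and 681 CPM in AvrRps4 leaves, against 132, 70.1 and 136 CPM in EV leaves, and its rise of 2.28 ± 0.70 (adjusted p = 0.0251) had an adjusted p of 0.0821 without EV replicate 3. MYB122 had 11.5, 25.7 and 29.3 CPM in AvrRps4 leaves, against 11.8, 4.32 and 2.92 CPM in EV leaves, so the groups overlapped, and its adjusted p of 0.0441 was 0.261 without EV replicate 3. The call of PAD3 also ended without AvrRps4 replicate 2 or 3 or EV replicate 1 or 2 (adjusted p between 0.0638 and 0.165), and that of MYB122 without AvrRps4 replicate 2 or 3 or EV replicate 2 (adjusted p between 0.127 and 0.22). None of the 13 genes for indole glucosinolates and tryptophan passed (median -0.43). IGMT1, an indole glucosinolate methyltransferase, came nearest, with 1.93, 4.3 and 1.37 CPM in AvrRps4 leaves, against 9.65, 6.86 and 16.3 CPM in EV leaves (-2.10 ± 0.73, adjusted p = 0.0529).

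Regulators of cell death had 5 risen and 0 fallen genes of 20 (median 0.71), against 3.84% risen over all genes. The count was 5 also without EV replicate 3 (median 0.63). BAP2, a C2-domain protein that restrains cell death together with BON proteins, had 320.0, 292 and 493 CPM in AvrRps4 leaves, against 12.4, 6.61 and 13.4 CPM in EV leaves. The groups did not overlap, and BAP2 rose by 5.09 ± 0.73 (adjusted p = 1.11e-07; 5.25 and 2.64e-05 without EV replicate 3). NUDT6, a Nudix hydrolase, had 634, 523 and 779 CPM in AvrRps4 leaves, against 26.1, 32.4 and 5.38 CPM in EV leaves, a rise of 4.92 ± 0.92 (adjusted p = 5.79e-05). BON3 had 18.7, 9.70 and 31.7 CPM in AvrRps4 leaves, against 0.924, 0.424 and 4.51 CPM in EV leaves, a rise of 3.37 ± 0.73 (adjusted p = 0.000701). BAP1, the relative of BAP2, had 145, 132 and 182 CPM in AvrRps4 leaves, against 42.3, 21.6 and 40.8 CPM in EV leaves, a rise of 2.13 ± 0.44 (adjusted p = 0.000327). NUDT7, a relative of NUDT6 known as a negative regulator of EDS1-dependent defence, rose by 2.06 ± 0.44 (adjusted p = 0.00047). LSD1 (0.85, adjusted p = 0.00271), RCD1 (0.74, adjusted p = 0.00124) and LOL1 (-0.96, adjusted p = 0.0139) passed the p threshold and not the fold limit.

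Of 24 receptor-like kinases of the cysteine-rich (CRK) and wall-associated (WAK) families, 5 rose and 0 fell (median 0.95), and 3 rose without EV replicate 3. Over all genes 3.84% rose and 1.22% fell with all replicates. WAK3 had 135, 158 and 197 CPM in AvrRps4 leaves, against 7.60, 7.54 and 5.77 CPM in EV leaves, and rose by 4.55 ± 0.95 (adjusted p = 0.000349). CRK37 had 70.9, 80.9 and 66.4 CPM in AvrRps4 leaves, against 11.4, 0.593 and 0.0790 CPM in EV leaves, so EV replicate 1 was far above the other EV replicates while the groups did not overlap (4.12 ± 0.95, adjusted p = 0.00145). CRK39 had 68.3, 114 and 169.9 CPM in AvrRps4 leaves, against 21.7, 9.83 and 18.9 CPM in EV leaves (2.8 ± 0.64, adjusted p = 0.00128). CRK7 rose by 3.07 ± 0.82 (adjusted p = 0.00764; 0.0786 without EV replicate 3) and CRK36 by 2.48 ± 0.77 (adjusted p = 0.0277; 0.17 without it), and the call of CRK7 also ended without AvrRps4 replicate 3 (adjusted p = 0.0833) or EV replicate 2 (adjusted p = 0.068). Many CRK genes lie in clusters of similar copies, which the counting may have divided. Of 20 calcium signalling genes, 4 rose and 1 fell (median 0.52), against the same 3.84% and 1.22%. Without EV replicate 3, 3 rose and 0 fell, against 2.24% and 0.663% of all genes. CNGC19, a cyclic nucleotide-gated calcium channel, had 52.2, 16.0 and 38.0 CPM in AvrRps4 leaves, against 1.39, 1.27 and 2.77 CPM in EV leaves, and rose by 4.29 ± 0.75 (adjusted p = 1.58e-05; 0.000363 without EV replicate 3). TCH3, a calmodulin-like protein, had 1760.1, 2975 and 2849 CPM in AvrRps4 leaves, against 1123, 476 and 638 CPM in EV leaves, a rise of 1.76 ± 0.38 (adjusted p = 0.000546). The calcium-dependent kinases CPK4 and CPK5 rose by 1.31 ± 0.33 (adjusted p = 0.00454) and 1.12 ± 0.29 (adjusted p = 0.00528; 0.0551 without EV replicate 3). TCH2, another calmodulin-like protein, had 20.7, 11.3 and 16.4 CPM in AvrRps4 leaves, against 36.2, 28.2 and 47.8 CPM in EV leaves (-1.21 ± 0.38, adjusted p = 0.0296; 0.171 without EV replicate 3). Without AvrRps4 replicates 2 and 3 in turn TCH2 had an adjusted p of 0.163 and 0.0853, and without EV replicate 2 CPK4 had 0.068.

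On the jasmonate, ethylene and abscisic acid lists 2 genes were called, both as risen, against 3.84% risen and 1.22% fallen over all genes. No jasmonate synthesis gene of 13 passed (median 0.10), no JAZ repressor of 12 (median 0.01), and 1 jasmonate response gene of 13 (median 0.58). That gene was PDF1.3, a defensin, with 0.124, 7.33 and 0 CPM in AvrRps4 leaves, against 0.0510, 0.762 and 0.158 CPM in EV leaves; the groups overlapped, the rise of 3.05 (adjusted p = 0.0275) rested on AvrRps4 replicate 2, and without that replicate the difference was -1.91. It also missed the threshold without EV replicate 1 (adjusted p = 0.165) and without EV replicate 3 (adjusted p = 0.148). None of 17 ethylene genes passed (median -0.02); ACS6, an ethylene synthesis enzyme, had 148, 201 and 269.8 CPM in AvrRps4 leaves, against 92.0, 55.1 and 115 CPM in EV leaves (1.24, adjusted p = 0.056). For abscisic acid, 1 of 17 genes rose (median 1.13, or 1.09 with HAI3, which had 0 counts in EV leaves, set at its lower bound). NCED5, an enzyme that cleaves the abscisic acid precursor, had 6.78, 4.37 and 5.72 CPM in AvrRps4 leaves, against 0, 0.339 and 0 CPM in EV leaves, and rose by 5.74 ± 0.84 (adjusted p = 1.11e-07; 7.44e-05 without EV replicate 3). NCED3, the main member of that family in leaves, differed by 1.58 (adjusted p = 0.103), and HAI1, a phosphatase of abscisic acid signalling, by 1.95 (adjusted p = 0.0594). Neither the 17 genes for protein folding in the endoplasmic reticulum (median 0.06) nor the 8 senescence genes (median 0.22) gave a call.

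Sugar transport was the list with the lowest median. Of 4 genes, 2 fell and 0 rose (median -1.29), against 1.22% fallen over all genes, and the counts were again 2 and 0 without EV replicate 3 (median -1.33). STP4, a hexose importer of the plasma membrane, had 63.7, 87.7 and 77.8 CPM in AvrRps4 leaves, against 269, 250.1 and 243 CPM in EV leaves. It fell by 1.73 ± 0.41 (adjusted p = 0.00205; 0.00701 without EV replicate 3). STP1, a related importer, had 387, 389 and 143 CPM in AvrRps4 leaves, against 1104, 806 and 917 CPM in EV leaves, and fell by 1.62 ± 0.46 (adjusted p = 0.0126; 0.0312 without EV replicate 3). Without AvrRps4 replicate 3, which was the lowest in STP1, the adjusted p of STP1 was 0.124. The groups did not overlap in either gene. STP13, known for its induction by bacterial patterns, differed by 0.53 (adjusted p = 0.613), and the cell wall invertase cwINV1 by -0.95 (adjusted p = 0.22). None of the 5 genes of the AZI1 cluster and DIR1, which act in systemic resistance, passed (median -0.96): AZI1 had 416, 396 and 1119.5 CPM in AvrRps4 leaves, against 1733, 1582 and 1906 CPM in EV leaves (-1.43, adjusted p = 0.16). Of 12 auxin and expansin genes, 2 fell (median -0.04), both expansins, against 1.22% of all genes. Without EV replicate 3, 1 of the 12 fell, against 0.663% of all genes. EXPA1 had 22.3, 19.1 and 26.7 CPM in AvrRps4 leaves, against 50.4, 103 and 77.5 CPM in EV leaves (-1.76 ± 0.51, adjusted p = 0.0152; 0.0482 without EV replicate 3), and EXPA5 fell by 2.36 ± 0.77 (adjusted p = 0.0393; 0.0939 without EV replicate 3). Leaving out AvrRps4 replicate 1 or 2 or EV replicate 2 ended both calls (adjusted p between 0.0543 and 0.117), as did AvrRps4 replicate 3 for EXPA5 (adjusted p = 0.135).

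Photosynthesis genes and cell type markers were measured to see what the samples held. No gene of 45 for photosynthesis passed (median -0.14; -0.40 without EV replicate 3), and their summed level was 14328.6, 24821.5 and 4372.5 CPM in AvrRps4 leaves, against 6948.2, 29618.8 and 11077.6 CPM in EV leaves. The spread within each group was wide and the groups overlapped. Epidermis and trichome markers summed to 819.9, 410.4 and 125.1 CPM in AvrRps4 leaves, against 517.7, 790.1 and 718.9 CPM in EV leaves, with 0 of 8 tested genes called and GL1 at 0 counts. Vascular markers summed to 866.0, 998.5 and 974.7 CPM in AvrRps4 leaves, against 748.8, 796.3 and 730.2 CPM in EV leaves, without overlap and with 0 of 11 genes called. Guard cell markers summed to 71.5, 68.0 and 63.0 CPM in AvrRps4 leaves, against 57.0, 68.5 and 68.5 CPM in EV leaves, and 1 of 8 fell: MYB60, a guard cell transcription factor, with 1.43, 1.48 and 0.938 CPM in AvrRps4 leaves, against 2.52, 3.98 and 2.37 CPM in EV leaves (-1.18 ± 0.36, adjusted p = 0.0246; 0.0294 without EV replicate 3). That call ended without AvrRps4 replicate 3 (adjusted p = 0.12) or EV replicate 2 (adjusted p = 0.143), and 1.22% of all genes fell. In whole leaf discs fewer cells of a type and less RNA per cell cannot be told apart, and the part of these levels in the results above was not tested. None of 15 clock genes passed (median 0.17).

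**Figure D3:**
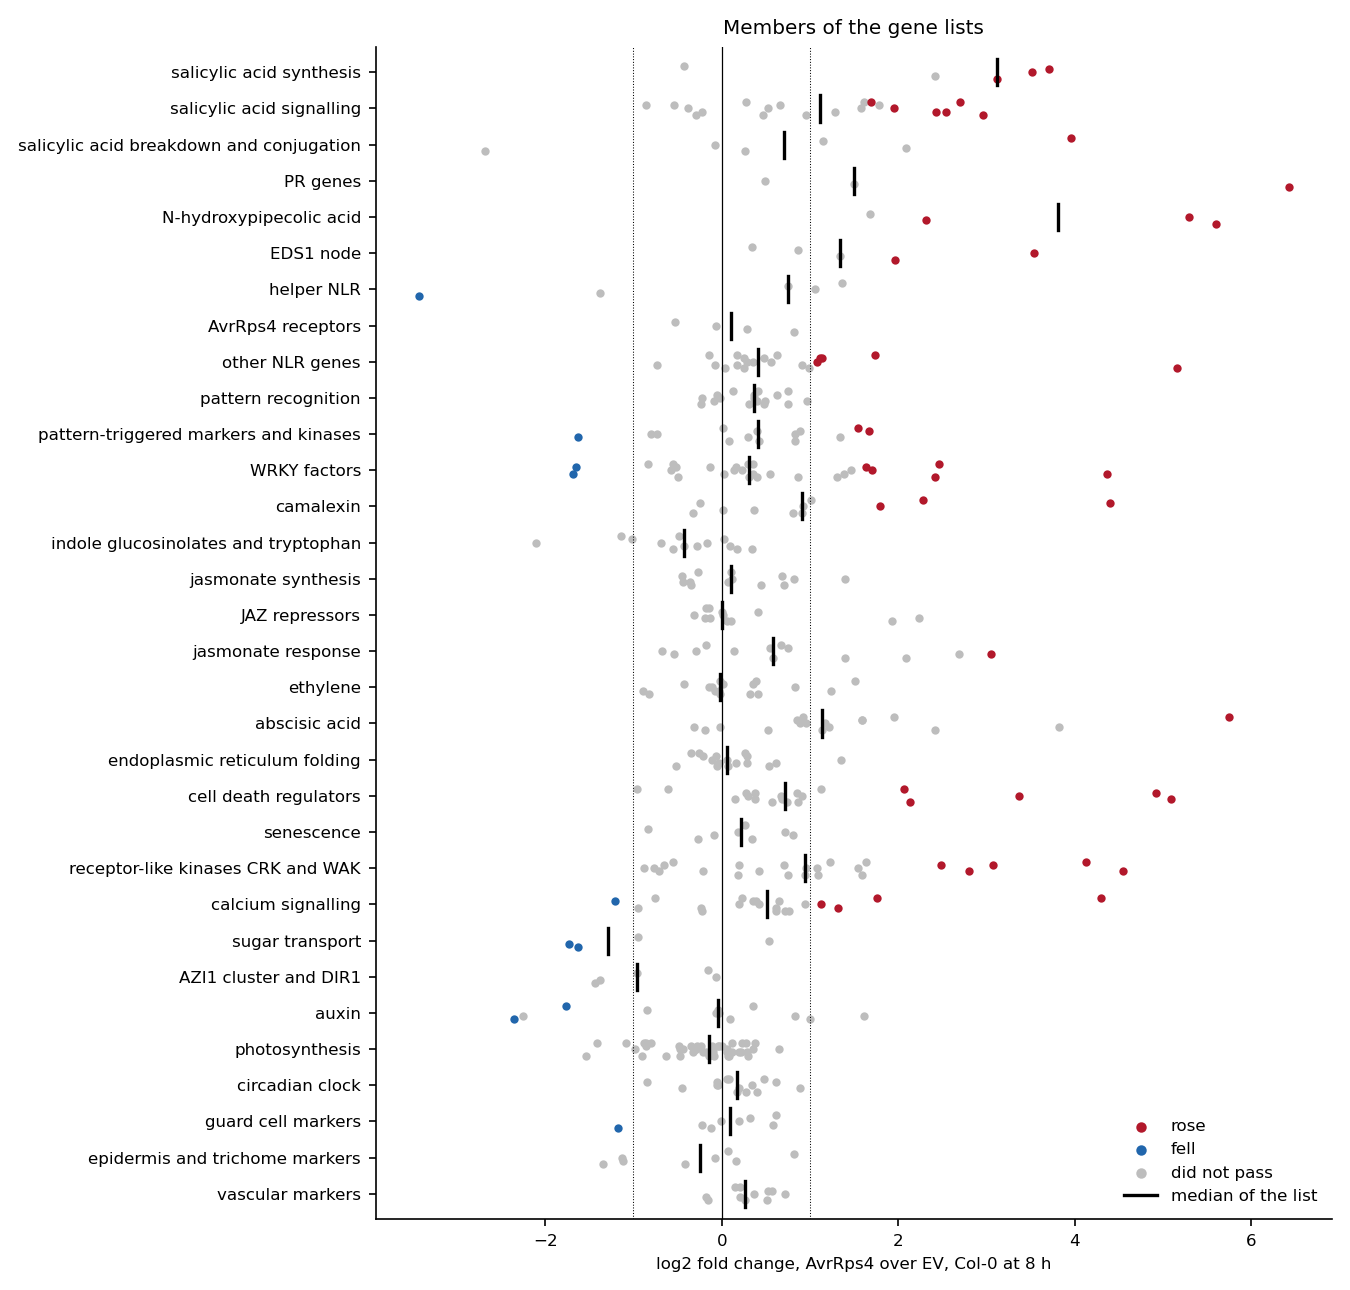
Log2 difference between AvrRps4 and EV leaves at 8 h for each tested member of each gene list, red where it rose, blue where it fell and grey where it did not pass; black bars are list medians and dotted lines the fold limit. The medians of the N-hydroxypipecolic acid (3.80) and salicylic acid synthesis (3.12) lists lie highest and that of sugar transport (-1.29) lowest.

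The largest rises took in several genes that were nearly silent in EV leaves. ARD3, an acireductone dioxygenase of the methionine salvage cycle, had 417, 188 and 369 CPM in AvrRps4 leaves, against 4.72, 2.88 and 0.158 CPM in EV leaves. It rose by 6.94 ± 1.06 (adjusted p = 4.34e-07; 6.37 without EV replicate 3). ARI12, a RING/U-box protein, had 121, 129 and 127 CPM in AvrRps4 leaves, against 2.46, 0.678 and 1.58 CPM in EV leaves, a rise of 6.28 ± 0.86 (adjusted p = 4.09e-08). WRKY59 had 25.7, 33.6 and 37.0 CPM in AvrRps4 leaves, against 0.719, 0 and 0.0790 CPM in EV leaves, a rise of 6.63 (adjusted p = 3.59e-08). AT5G46960, an invertase and pectin methylesterase inhibitor family gene, had 35.4, 26.4 and 48.6 CPM in AvrRps4 leaves, against 0.154, 0.0850 and 0.0790 CPM in EV leaves, a rise of 8.22 ± 1.00 (adjusted p = 6.18e-09). AT1G26400, an FAD-binding berberine family enzyme with near copies beside it, had 32.8, 20.4 and 22.2 CPM in AvrRps4 leaves, against 0.205, 0 and 0.0790 CPM in EV leaves, a rise of 7.69 ± 1.02 (adjusted p = 2.97e-08). For genes with 3 or fewer counts over all EV replicates the ratio of counts is given with its 95% exact interval. The counts of the replicates were pooled for it, so it leaves out the spread between replicates and covers counting error at most. Copies made by PCR were not marked, which can make it too narrow even for that. AT5G63225, a carbohydrate-binding protein gene, had 1467 counts in AvrRps4 leaves, against 3 in EV leaves, a ratio of 520.0 with an interval of 178 to 2530. DESeq2 did not call it (adjusted p = 0.0721). AT4G11340, a TIR-NBS-LRR gene that overlaps another gene, had 539 counts in AvrRps4 leaves, against 2 in EV leaves, a ratio of 287 with an interval of 79.0 to 2370. AT3G56891, of the heavy metal transport and detoxification superfamily, had 247 counts in AvrRps4 leaves, against 3 in EV leaves, a ratio of 87.6 with an interval of 29.6 to 428. AT1G33940, annotated as a serine/threonine kinase ULK4-like protein, had 194 counts in AvrRps4 leaves, against 0 in EV leaves, so it was at least 68.8-fold higher against a floor of 3 counts over the group. A further gene overlaps AT1G33940 on the other strand, and no source used here says that the counting kept the strands apart.

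The largest fall was that of WRKY49, a WRKY factor outside the list above. It had 0, 0 and 1 counts in AvrRps4 leaves, against 145, 113 and 46 counts in EV leaves, or 0, 0 and 0.0850 CPM in AvrRps4 leaves, against 7.44, 9.57 and 3.64 CPM in EV leaves; the ratio of summed counts was 0.0035 with an interval of 8.83e-05 to 0.0196. AT5G64100, a peroxidase, had 0.684, 1.26 and 0.171 CPM in AvrRps4 leaves, against 39.2, 9.49 and 5.85 CPM in EV leaves, with EV replicate 1 well above the rest (-4.65 ± 1.12, adjusted p = 0.00243). AT1G05700, a leucine-rich repeat receptor kinase, had 0.684, 0.889 and 1.54 CPM in AvrRps4 leaves, against 13.3, 9.40 and 12.3 CPM in EV leaves (-3.50 ± 1.01, adjusted p = 0.0146). PDF1.4, a defensin-like protein, had 17.1, 6.89 and 9.47 CPM in AvrRps4 leaves, against 88.0, 94.8 and 66.8 CPM in EV leaves (-2.90 ± 0.55, adjusted p = 7.56e-05). HAK5, a high-affinity potassium transporter of roots, had 0.684, 0.667 and 1.19 CPM in AvrRps4 leaves, against 2.41, 10.5 and 5.93 CPM in EV leaves (-2.88 ± 0.75, adjusted p = 0.006). OPT6, annotated as an oligopeptide transporter, had 11.6, 6.89 and 12.3 CPM in AvrRps4 leaves, against 65.1, 55.6 and 64.7 CPM in EV leaves (-2.59 ± 0.53, adjusted p = 0.000292), and it overlaps genes on the other strand. These genes were chosen among called genes with at least 5 CPM on average in EV leaves and every AvrRps4 replicate below every EV replicate. Under that rule the uncharacterised genes AT4G16240, AT3G21351 and AT1G65486 and the C1-domain gene AT2G44380 complete the 10 largest falls, at -3.52, -3.15, -2.76 and -2.56. Some called genes outside the rule fell further, such as AT1G65484, the neighbour of AT1G65486, at -3.76. Without AvrRps4 replicates 1 and 2 in turn the adjusted p was 0.0773 and 0.0728 for AT1G05700 and 0.0671 and 0.0743 for AT2G44380, and without EV replicate 2 it was 0.0736 for HAK5.

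The same contrast was made at 4 h to ask when the effector response arose. At 4 h, 131 genes rose (0.665% of those tested) and 0 fell, with 2119 genes at an unadjusted p under 0.05. The libraries at 4 h are not those at 8 h, and 93 genes rose at both times, which was 71.0% of the 131 and 12.3% of the 755. ICS1, PBS3 and EDS5 had differences of 3.2, 3.17 and 2.58 at 4 h, beside 3.12, 3.71 and 3.52 at 8 h. ALD1 and FMO1 were at 4.66 and 4.54 at 4 h, beside 5.6 and 5.29 at 8 h. All 3 PR genes were called as higher at 4 h (list median 6.03), against 1 of 3 at 8 h, but AvrRps4 replicate 1 alone stood high. PR1 had 208, 0.0770 and 0.0850 CPM in AvrRps4 leaves, against 0, 0 and 0 CPM in EV leaves at 4 h. PR2 had 505, 2.54 and 11.04 CPM in AvrRps4 leaves, against 6.71, 2.11 and 0.936 CPM in EV leaves, and PR5 had 278, 2.31 and 6.28 CPM in AvrRps4 leaves, against 2.96, 1.02 and 0.312 CPM in EV leaves. Their 8 h effect minus the 4 h effect was -6.20 for PR1, -4.22 for PR2 and -5.54 for PR5, none of which passed (adjusted p = 0.375, 0.271 and 0.215). At 0.5 h, ICS1 had 18.1, 19.3 and 24.7 CPM in AvrRps4 leaves, against 35.9, 30.5 and 26.6 CPM in EV leaves. The groups did not overlap, but the difference at 0.5 h was not tested. The share of all genes without overlap at that time was not counted. CYP71A13 differed by 2.06 at 4 h (adjusted p = 0.362), STP4 by -0.86 (adjusted p = 0.42) and WRKY49 by -2.72 (adjusted p = 0.0929), none of which passed.

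When the difference between the 8 h and 4 h effects was tested itself, 2 genes had a higher effect at 8 h (0.0102%) and 2 a lower one (0.0102%), with 2273 genes at an unadjusted p under 0.05 and 13 calls by DESeq2. Leaving out 1 of the 8 h replicates in turn gave 1 to 3 and 0 to 2 genes. CPFTSY, the chloroplast receptor of the signal recognition particle, had 35.6, 40.5 and 35.4 CPM at T0. At 4 h it had 17.9, 17.6 and 10.9 CPM in AvrRps4 leaves, against 10.2, 8.31 and 11.3 CPM in EV leaves. At 8 h it had 55.6, 44.9 and 55.3 CPM in AvrRps4 leaves, against 10.4, 11.5 and 7.59 CPM in EV leaves. The effect was 0.64 at 4 h (adjusted p = 0.376) and 2.40 ± 0.28 at 8 h, and their difference of 1.76 ± 0.38 passed (adjusted p = 0.039), but missed the threshold when any 1 of the 8 h replicates other than AvrRps4 replicate 2 was left out (adjusted p between 0.059 and 0.267). CPFTSY is the neighbour of BAP2 on the other strand, and both rose at 8 h. AT1G52315, annotated as a regulator of Vps4 activity, had 8.83, 9.11 and 8.36 CPM in AvrRps4 leaves, against 1.49, 0.932 and 0.869 CPM in EV leaves at 8 h. Its effect was -0.14 at 4 h and 2.96 ± 0.41 at 8 h (difference 3.1 ± 0.57, adjusted p = 0.00721), and it passed whichever 8 h replicate was left out. AT1G02350, a protoporphyrinogen oxidase-like gene, had the lower effect: at 4 h it had 0.990, 1.38 and 0.424 CPM in AvrRps4 leaves, against 0, 0.0600 and 0.104 CPM in EV leaves, and at 8 h it had 0 counts in AvrRps4 leaves, against 11 in EV leaves. Its difference between the times missed the threshold without any 1 of the 8 h replicates other than EV replicate 3 (adjusted p between 0.0562 and 0.139).

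**Figure D4:**
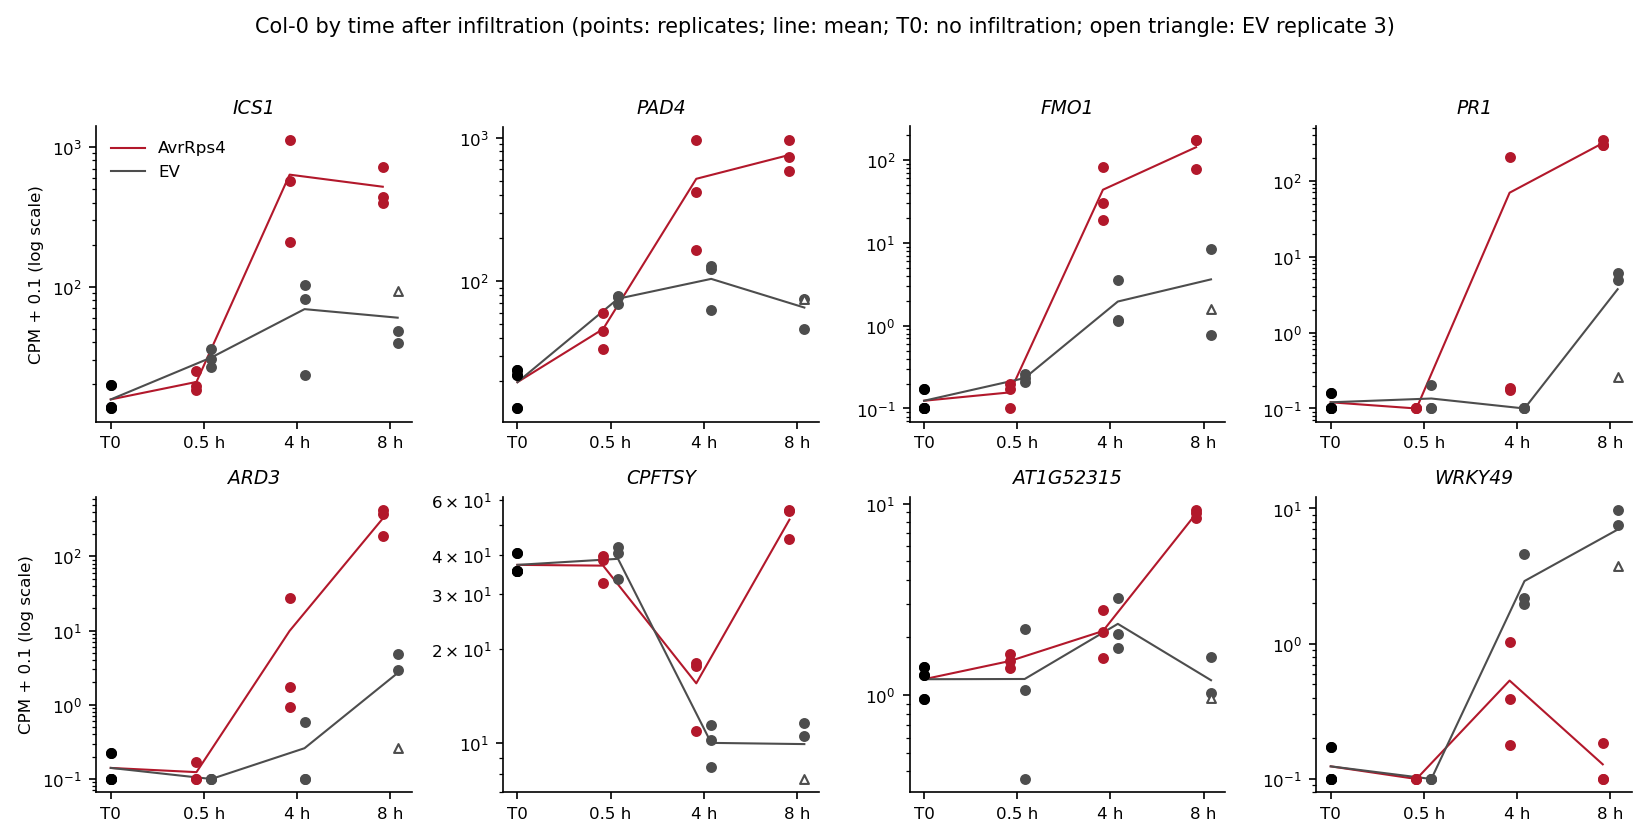
Level of 8 genes in Col-0 before infiltration (T0) and 0.5, 4 and 8 h after it, as CPM + 0.1 on a log axis; times are equally spaced, points are replicates and lines are group means (AvrRps4 red, EV grey). ICS1, PAD4 and FMO1 are apart at 4 and 8 h, whereas in CPFTSY and AT1G52315 the groups are apart at 8 h.

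The 8 h contrast was also made in the 3 mutant genotypes, to ask how the response differs where helper receptors are missing. Some of their EV libraries went against their labels: both libraries of replicate 3 in adr1 and in helperless plants and 1 library of replicate 3 in nrg1 plants, so counts are also given without all such libraries. In helperless leaves 0 genes rose and 0 fell (0.0% of those tested, with 910 genes at an unadjusted p under 0.05), and without those libraries the counts were again 0 and 0. In nrg1 leaves 578 genes rose (2.94%) and 78 fell (0.396%), or 484 and 77 without those libraries. In adr1 leaves 401 rose (2.04%) and 38 fell (0.193%), or 148 and 24 without those libraries. Of the 755 genes that rose in Col-0, 415 also rose in nrg1, which was 55.0% of the Col-0 list and 71.8% of the nrg1 list. In adr1 the shared genes numbered 204, which was 27.0% of the Col-0 list and 50.9% of the adr1 list. Without the libraries against their label in the mutants, 365 genes were shared with nrg1 (48.3% of the Col-0 list and 75.6% of the nrg1 list) and 119 with adr1 (15.8% of the Col-0 list and 80.4% of the adr1 list).

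The effect itself was compared between Col-0 and each mutant. It was higher in Col-0 than in helperless leaves for 346 genes (1.76%) and lower for 48 (0.244%), but without the libraries against their label for 71 (0.357%) and 2 (0.01%). Leaving out AvrRps4 replicate 3, EV replicate 2 or EV replicate 3 of Col-0 alone gave 184, 148 and 158 higher genes and 23, 28 and 17 lower ones, and leaving out AvrRps4 replicate 2 gave 22 lower ones. Against nrg1 the count was 0 and 0 with edgeR's quasi-likelihood test, with 443 genes at an unadjusted p under 0.05, and 0 with DESeq2. Against adr1 it was 4 higher (0.0203%) and 2 lower (0.0102%), and 0 and 0 without the libraries against their label; leaving out 1 replicate of Col-0 gave 0 to 4 in either direction. PAD4 had 21.6, 31.3 and 32.3 CPM in helperless AvrRps4 leaves, against 22.6, 27.1 and 62.1 CPM in helperless EV leaves. In nrg1 it had 329.9, 869 and 1273 CPM in AvrRps4 leaves, against 60.3, 75.2 and 38.2 CPM in EV leaves, and in adr1 163, 56.0 and 257 CPM in AvrRps4 leaves, against 32.7, 34.9 and 95.4 CPM in EV leaves. The AvrRps4 effect on PAD4 was thus -0.39 in helperless, 3.83 in nrg1 and 1.55 in adr1 leaves, and the difference between Col-0 and helperless leaves was 3.93 ± 0.72 (adjusted p = 0.000214; 0.024 without the libraries against their label). The effects in single mutants, here and for ICS1 and WRKY49 below, include the EV libraries against their label. In helperless and adr1 leaves EV replicate 3 had the highest PAD4 level of its EV group. The order of the mutants was not tested.

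ICS1 had 19.0, 38.4 and 48.1 CPM in helperless AvrRps4 leaves, against 29.2, 19.5 and 36.3 CPM in helperless EV leaves, so the groups overlapped. Its effect was 0.31 in helperless, 3.58 in nrg1 and 2.42 in adr1 leaves, and the difference between Col-0 and helperless leaves was 2.81 ± 0.78 (adjusted p = 0.03; 0.122 without the libraries against their label). In FMO1 the difference from helperless was 6.22 ± 1.24 (adjusted p = 0.000617; 0.0353 without those libraries) and in ALD1 6.45 ± 1.19 (adjusted p = 0.000241; 0.0482). BAP2 had 3.31, 3.37 and 3.40 CPM in helperless AvrRps4 leaves, against 6.18, 3.16 and 5.68 CPM in helperless EV leaves, and its difference was 5.66 ± 0.95 (adjusted p = 6.11e-05; 0.00322). WRKY49, the gene with the largest fall in Col-0, had 16.1, 3.89 and 15.2 CPM in helperless AvrRps4 leaves, against 7.46, 16.5 and 3.24 CPM in helperless EV leaves. Its effect was 0.39 in helperless, -4.71 in nrg1 and -4.41 in adr1 leaves, and its difference between Col-0 and helperless leaves was -7.99 ± 1.32 (adjusted p = 6.11e-05; 0.000874). For PR1 the difference of 7.12 (adjusted p = 0.000685) did not pass without those libraries (4.32, adjusted p = 0.231).

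**Figure D5:**
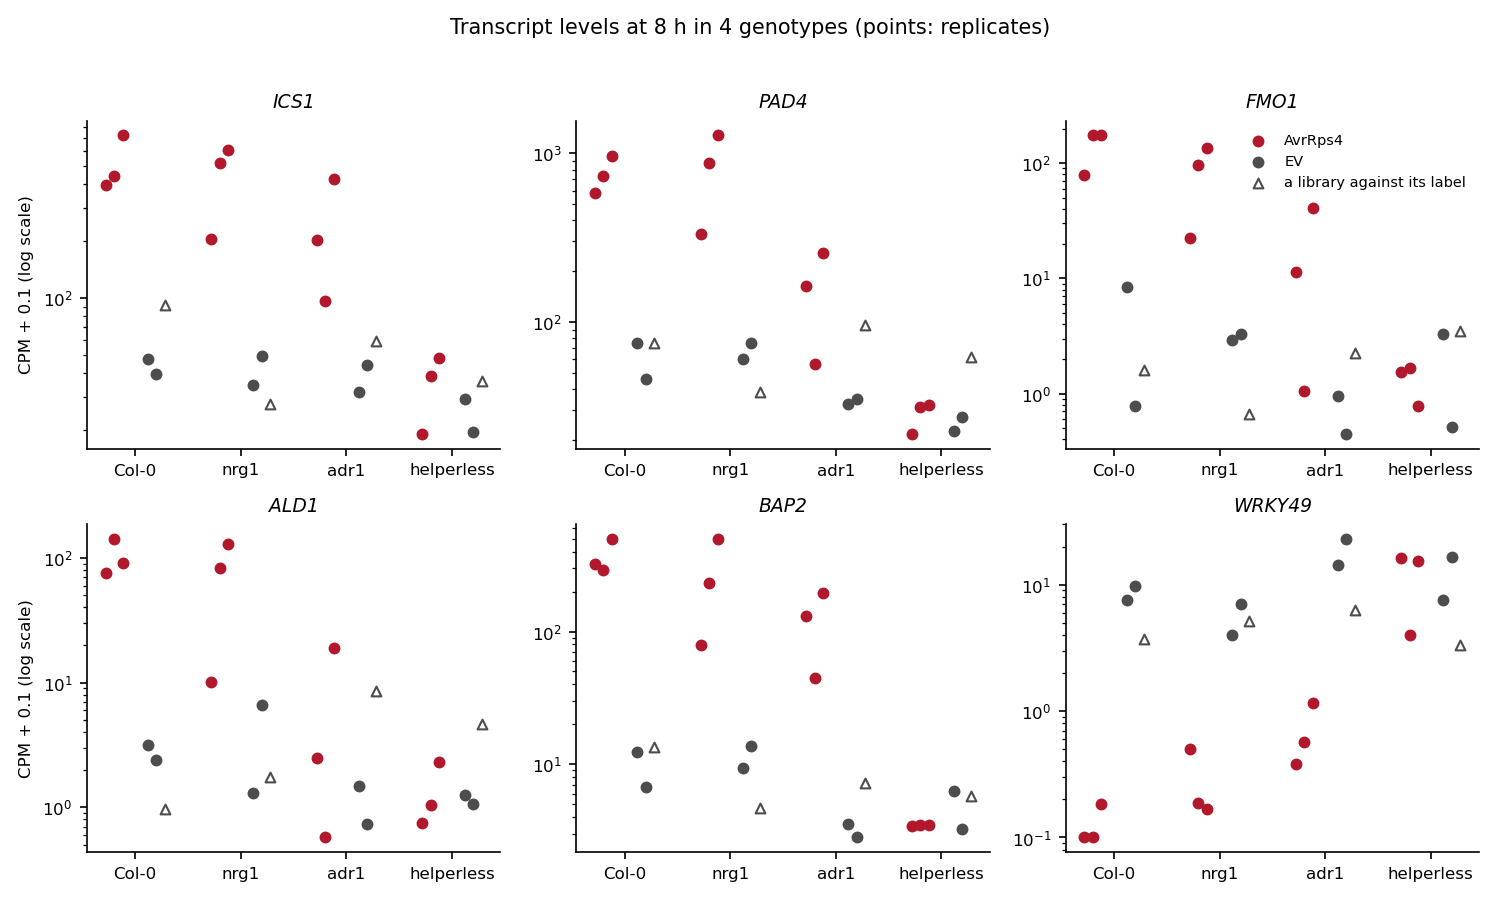
Level of 6 genes at 8 h in Col-0, nrg1, adr1 and helperless leaves, as CPM + 0.1 on a log axis, with AvrRps4 leaves (red) left of EV leaves (grey) in each genotype; points are replicates, and an open triangle is a replicate with a library against its label. In helperless leaves the AvrRps4 and EV points lie at similar levels in ICS1, PAD4 and BAP2, whereas in Col-0 and nrg1 they lie apart.

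By gene list, the effect was higher in Col-0 than in helperless leaves for 3 of 4 N-hydroxypipecolic acid genes, 3 of 5 salicylic acid synthesis genes, 5 of 20 salicylic acid signalling genes, 4 of 20 cell death regulators and 3 of 27 WRKY factors, against 1.76% of all genes. Without the libraries against their label, these counts were 2 for the N-hydroxypipecolic acid genes, 0 for salicylic acid synthesis, 0 for salicylic acid signalling, 3 for the cell death regulators and 0 for the WRKY factors. In adr1 leaves several effects did not pass: the PR1 effect was 1.88 (adjusted p = 0.296), that of ALD1 1.11 (adjusted p = 0.482) and that of EDS1 0.49 (adjusted p = 0.629). These values include adr1 EV replicate 3, whose libraries went against their label. None of these 3 genes passed the test of the difference between Col-0 and adr1 leaves, so a lost response was not shown. BAP2 rose in adr1 leaves by 4.81 (adjusted p = 5.31e-06). The 4 genes with a higher effect in Col-0 than in adr1 leaves were AT3G26470, which carries the RPW8 domain that marks helper NLRs, AT3G02770, ADR1-L2 and the defensin gene PDF1.2b. AT3G26470 had 23.6, 23.1 and 27.9 CPM in AvrRps4 leaves, against 1.23, 1.44 and 1.19 CPM in EV leaves in Col-0, and 4.87, 1.42 and 5.09 CPM in adr1 AvrRps4 leaves, against 1.77, 1.33 and 4.21 CPM in adr1 EV leaves; other genes overlap it. The difference of 3.56 ± 0.71 (adjusted p = 0.0376) missed the threshold without AvrRps4 replicate 2 or 3 or EV replicate 2 or 3 of Col-0 (adjusted p between 0.0567 and 0.125).

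Col-0 leaves with AvrRps4 were also set against Col-0 leaves with the effectors AvrRpt2 and AvrRpm1 at 8 h, which coiled-coil receptors recognise. With AvrRps4, 7 genes were higher than with AvrRpt2 (0.0356%) and 62 lower (0.315%); without AvrRps4 replicate 1 the counts were 0 and 1, without replicate 2 they were 3 and 2, and without replicate 3 they were 5 and 10. Relative to AvrRpm1, 1455 genes were higher (7.39%) and 2301 lower (11.7%). ICS1 had 396, 439 and 721 CPM with AvrRps4, against 766, 553 and 629 CPM with AvrRpt2 and 345, 229 and 148 CPM with AvrRpm1. Its difference from AvrRpt2 was -0.32 (adjusted p = 0.835) and from AvrRpm1 1.11 (adjusted p = 0.115). PAD4 had 583, 731 and 958 CPM with AvrRps4, against 854, 683 and 607 CPM with AvrRpt2 and 234, 164 and 109.5 CPM with AvrRpm1. PAD4 was higher with AvrRps4 than with AvrRpm1 by 2.16 ± 0.51 on the log2 scale (adjusted p = 0.000697), as were EDS1 by 2.02 ± 0.48 (adjusted p = 0.000788), PR1 by 3.37 ± 0.98 (adjusted p = 0.00551), SARD1 by 1.89 ± 0.59 (adjusted p = 0.0101) and ARD3 by 5.14 ± 0.97 (adjusted p = 2.4e-05). FMO1 had 78.7, 174 and 174 CPM with AvrRps4, against 207, 118 and 256 CPM with AvrRpt2 and 111, 77.1 and 22 CPM with AvrRpm1, and neither difference passed (-0.44 ± 0.76 and 1.02 ± 0.77). PAD4 and PR1 differed from AvrRpt2 by 0.08 ± 0.49 (adjusted p = 0.967) and 0.64 ± 0.90 (adjusted p = 0.799), which does not show that the levels were alike.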

How the data were processed

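RNA-seq counts per gene were deposited by the authors as a table of 25320 genes with 305 libraries of 50-base single-end reads. Per the submitters' processing notes, the tools were FastQC 0.11.7, Trimmomatic 0.36, HISAT2 2.1.0, featureCounts and Subread, with the TAIR10 build; the strand setting of the counting is not given in the sources used here. Reads of near-identical or overlapping genes may have been divided between them. SARD1, STP1, TCH3, CYP71A13 and AT1G17600 are among the named genes that share bases with a gene on the other strand.

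Here the libraries of a replicate were summed (149 replicates had 2 libraries and 7 had 1), genes were filtered with filterByExpr, and edgeR 4.0.16 (R 4.3.3) was fitted over all 52 groups with TMM normalisation and robust quasi-likelihood dispersion. Differences between effects were tested as interaction contrasts in that fit. P-values were adjusted over all 19687 genes by the Benjamini-Hochberg method, and a gene was called at an adjusted p under 0.05 with a log2 difference of at least 1. DESeq2 1.42.0 was an alternative. The scripts were tested on simulated data. Replicate numbers were not taken as pairs. Deviations of same-numbered samples correlated at -0.139, 0.266 and 0.204, and those of other-numbered samples at -0.349 to 0.247. With so few samples these values cannot decide whether the numbers mark pairs, and fits with a replicate block are given below. Replicates correlated across genes at 0.957 to 0.985 within AvrRps4 and 0.975 to 0.984 within EV, and library totals of the series lay between 3128554 and 23257821.

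The comparison and the 32 gene lists (432 genes, 429 of them in the table) were chosen with earlier results of these data known. The rule for named genes took the 5 helper NLRs with ICS1, PR1, PAD4, FMO1 and FRK1, up to 4 called members with the largest change in each list (1 or 2 where none was called), the 10 largest rises and falls with at least 5 CPM in the higher group and no overlap, and up to 5 genes in each direction for each other comparison; further list members are given where they describe a pathway. Gene names were matched to RefSeq for 24966 identifiers, and 354 were not found. Promoter windows came from RefSeq TAIR10.1. Alternatives were each replicate left out, all libraries against their label left out, other normalisation, filter, tool, fold limit, sample set and a replicate block.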

Additional observations from a re-analysis of the deposited data

Results flagged for a closer look

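The values here are log2 differences between the AvrRps4 effect in Col-0 at 8 h and the effect at 4 h or in a mutant. Each gene given here passed the test of the difference itself (edgeR's quasi-likelihood test, adjusted over all genes), and further genes of the lists did so too, as counted above. Where 1 arm has 0 counts the fitted value depends on the prior count and is no bound.

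Between the 8 h and the 4 h effect in Col-0, the difference was -8.49 for AT1G02350, 3.1 for AT1G52315 and 1.76 for CPFTSY. The levels of these 3 genes are given with the time comparison above. KTI1, annotated as a trypsin inhibitor, had the other lower effect at 8 h, with a difference of -7.15: its effect was 5.73 at 4 h and -1.42 at 8 h (adjusted p = 0.00122 and 0.237).

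Between the effect in Col-0 and that in helperless leaves, WRKY49 differed by -7.99, with a Col-0 effect of -7.60 and a helperless effect of 0.39; it passed without the libraries against their label (adjusted p = 0.000874). PAD4 (3.93), FMO1 (6.22), ALD1 (6.45) and BAP2 (5.66), whose values stand above, passed with and without those libraries, and ICS1 (2.81) and PR1 (7.12) did not pass without them. Nor did the following 9 genes. ARD3 differed by 7.93 (3.71 without them, adjusted p = 0.461), AT5G46960 by 7.42 (adjusted p = 0.469 without them) and AT5G52720, of the copper transport family, by 7.25 (adjusted p = 0.49 without them). CYP96A5 differed by 8.29 and AT3G60470 by 7.71; both had 0 counts in all helperless AvrRps4 replicates, and among the helperless EV replicates only replicate 3, whose libraries went against their label, was above 0. AT3G06840 differed by -4.08 and NAS1, a nicotianamine synthase, by -4.43 (adjusted p = 0.0894 and 0.353 without those libraries). MRD1 differed by -5.25, and by 0.04 without them. GER3, a germin-like protein, differed by -8.12; its Col-0 level was 0.560, 0.667 and 0.171 CPM in AvrRps4 leaves, against 0.308, 37.8 and 0.158 CPM in EV leaves, so EV replicate 2 decided the value.

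Between the effect in Col-0 and that in adr1 leaves, ADR1 differed by -5.31, AT3G02770 by 1.64, AT3G26470 by 3.56, ADR1-L2 by 2.54, PDF1.2b by 7.64 and GER3 by -10.38. ADR1-L2 had 24.1, 24.0 and 20.5 CPM in adr1 AvrRps4 leaves, against 28.9, 32.0 and 131 CPM in adr1 EV leaves, so EV replicate 3 was far above the rest. PDF1.2b had 0, 5.48 and 0 CPM in AvrRps4 leaves, against 0, 0.508 and 0.474 CPM in EV leaves in Col-0, so AvrRps4 replicate 2 alone was high. In adr1 leaves GER3 had 51.8, 0.316 and 0.0300 CPM with AvrRps4, against 0.114, 0.808 and 0.0620 CPM with EV. ADR1 had 532, 973 and 1658 CPM in adr1 AvrRps4 leaves, against 438, 363 and 58.6 CPM in adr1 EV leaves. AT3G02770 had 40.0, 40.4 and 41.0 CPM in AvrRps4 leaves, against 16.7, 18.0 and 9.09 CPM in EV leaves in Col-0, and 25.6, 10.9 and 18.9 CPM in adr1 AvrRps4 leaves, against 18.7, 18.2 and 26.1 CPM in adr1 EV leaves. None of these 6 passed without the libraries against their label.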

How the results depend on the processing

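The 755 risen and 241 fallen genes of the 8 h comparison became 1193 and 708 with libraries not summed, 1246 and 451 without the fold limit, 439 and 126 without all libraries against their label, and 277 and 51 with the 2 groups alone and without EV replicate 3 (an alternative chosen after seeing the data); leaving out 1 replicate gave 411 to 670 and 132 to 290. With the replicate block the counts were 816 and 276 over all groups and 575 and 168 with the 2 groups alone, and the block kept 993 of the 996 calls over all groups but 590 with the 2 groups alone, where the fit without the block kept 741. The block with the 2 groups alone ended the calls of FMO1 (adjusted p = 0.0502), PAD3 (0.0661), SNC1 (0.0615), STP1 (0.0655), TCH3 (0.103), WRKY31 (0.101), CRK7 (0.0539), CRK37 (0.0791), EXPA5 (0.0623), MYB60 (0.0923), MYB122 (0.176) and ADR1 (0.511), and the 2 groups alone without the block those of BON3 (0.0592), CRK37 (0.0933), MYB60 (0.0649), MYB122 (0.108) and ADR1 (0.166). DESeq2 ended those of AT5G63225 (0.0721), PDF1.3 (0.177) and MYB122 (0.054). The 8 h minus 4 h difference (2 higher, 2 lower) gave 10 higher with DESeq2, 6 with RLE normalisation and 1 without the libraries against their label; leaving out 1 replicate gave 1 to 3 higher and 0 to 2 lower. The difference from helperless (346 and 48) gave 71 and 2 without the libraries against their label, 402 and 71 with the replicate block, and 148 to 349 and 17 to 63 with 1 replicate left out. The difference from adr1 (4 and 2) gave 11 higher with DESeq2, 2 and 1 without the filter, 0 and 0 with the older quasi-likelihood fit (chosen after seeing the data) and without the libraries against their label, 6 and 1 with the replicate block, and 0 to 4 in both directions with 1 replicate left out. Against AvrRpt2 (7 and 62) the counts were 15 higher with DESeq2, 4 and 38 with the older fit, 12 and 94 with the replicate block, 4 and 22 without the libraries against their label, and 0 to 8 and 1 to 40 with 1 replicate left out. The cause of these shifts was not tested. Signs turned for some genes. With the 2 groups alone and no EV replicate 3, and without all libraries against their label, ADR1 was at 0.16 and 0.18, ADR1-L1 at 0.49 and 0.50 and FRK1 at -0.06 and -0.04; FRK1 was at -0.07 with the block and 2 groups. Over the replicates left out in turn, ADR1 ran from -4.04 to 0.18, ADR1-L1 from -1.90 to 0.50, FRK1 from -0.48 to 0.34, MRD1 from -5.88 to 0.00, GER3 from -5.29 to 0.87, LHCB2.2 from -2.59 to 0.08, LHY from -0.26 to 1.25, PDF1.3 from -1.91 to 4.47, XCP1 from -0.12 to 1.18 and XCP2 from -0.02 to 1.00. MRD1 was at 0.00 without all libraries against their label, and its difference from helperless at 0.04. At this depth a gene with 0 counts over the 3 replicates of a group could not be told from one with up to 3 counts.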

Other observations

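Several named genes have a neighbour in the annotation that also rose at 8 h; these neighbours were singled out after their values were seen. AT5G66890, next to NRG1.1 on chromosome 5 and without a gene name in the annotation used, had 14.1, 14.5 and 18.0 CPM in AvrRps4 leaves, against 0.719, 0.085 and 0.711 CPM in EV leaves, and rose by 4.85 ± 0.76 (edgeR's quasi-likelihood test, adjusted p = 1.08e-06; 5.06 without EV replicate 3). NRG1.1 itself stayed under the fold limit at 0.75. XTH10, a xyloglucan endotransglucosylase gene next to PR1, had 84.2, 61.1 and 47.1 CPM in AvrRps4 leaves, against 1.64, 1.44 and 0.474 CPM in EV leaves, a rise of 5.72 ± 0.80 (adjusted p = 7.84e-08). PES2, a phytyl ester synthase next to PAD3, had 164, 171 and 142 CPM in AvrRps4 leaves, against 27.7, 6.78 and 13.4 CPM in EV leaves, a rise of 3.31 ± 0.46 (adjusted p = 5.57e-08). RR5, a response regulator of cytokinin signalling next to EDS1, rose by 1.8 ± 0.40 (adjusted p = 0.000911). Of all 246 neighbours of named genes, counted once for each named gene they adjoin, 24 rose, 2 fell, 139 did not pass and 81 were not tested. Over all tested genes 3.84% rose and 1.22% fell. Some risen neighbours are themselves named genes, such as BAP2 and CPFTSY, so the count partly repeats the choice of named genes. Whether reads of 1 gene of such a pair were counted for the other was not tested.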
